A study of Mus musculus with 8 samples.

Results

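The genes described here encode the proteins of the mitochondrial ribosome, measured in mouse oocytes with and without exposure of the animals to bisphenol S (BPS). They were taken by symbol: a probe set had to carry exactly 1 gene symbol made of Mrpl or Mrps and a number, and where a symbol had several such probe sets the brightest was kept. This gave 75 genes, 46 with Mrpl symbols (large subunit) and 29 with Mrps symbols (small subunit), among 29455 symbols that stand alone on a probe set and 34472 probe sets in all. By ribosome structure 48 of the 75 belong to the large subunit and 25 to the small one, because Mrps30 and Mrps18a are built into the large subunit in spite of their symbols. Mrps36 is now known as a component of the 2-oxoglutarate dehydrogenase complex, and Mrps36-ps1 is a pseudogene symbol. Mrpl33, Mrpl48 and Mrps6 share each of their probe sets with another gene and were not counted.

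Mitochondria keep a genome and a ribosome of their own. That ribosome reads only the few messages of the mitochondrial genome, which encode core subunits of the respiratory chain and of ATP synthase, while all of its proteins are encoded in the nucleus, made in the cytosol and imported. Some of these proteins descend from the bacterial ribosome and others exist only in mitochondria. The oocyte holds the mitochondria that the embryo inherits, and in humans inherited variants of MRPS22 are known to cause ovarian dysgenesis.

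Gene expression was measured on 8 Affymetrix arrays that carry probe sets for mouse transcripts. The RNA came from oocytes of female ICR mice, an outbred stock, aged 8 weeks and fed a diet without phyto-oestrogens. The control group was 4 arrays from untreated animals, and the BPS group was 4 arrays from animals gavaged daily for 7 days with 0.1 ng BPS per gram of body weight, in 50% glycerol with 0.1% DMSO. No vehicle is named for the control animals, so the vehicle and gavage cannot be told apart from BPS. The protocols speak of collecting ovaries, whereas the tissue and extraction fields name oocytes, and the labels do not say how many animals stand behind an array. P-values therefore measure the spread between these arrays, which may be partly technical.

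Signals are log2 values from RMA, the method that corrects background, normalises and summarises the probes of a gene. The number of arrays limits the precision. A background level of 4.54 was set at the 95th percentile of 1560 probe sets for olfactory receptors, vomeronasal receptors and Y-linked genes, and 29.4% of all probe sets had a mean above it. Of 20 oocyte markers 19 were above that level, with a median signal of 9.52. Of 15 granulosa cell markers 3 were above it (Gata4, Inha and Nr5a2), of 12 theca and stroma markers 0, of 6 endothelial markers 1 (Pecam1), of 7 immune markers 0 and of 5 erythroid markers 0. The other granulosa markers of the list, among them Foxl2, Fshr, Amh and Cyp19a1, lay at background.

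Most mitochondrial ribosomal protein genes gave a signal above background in the oocyte. This held for 64 of the 75 genes, 40 of 46 with Mrpl symbols and 24 of 29 with Mrps symbols. Their median signal was 5.45, with a range from 3.93 to 8.72, against 4.175 over all probe sets and 5.39 over the 10123 probe sets above background. Signals of different probe sets depend on their probes and are not compared here as amounts of transcript.

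The highest signals among the small subunit genes were those of Mrps22, a protein found only in mitochondrial ribosomes, at 8.72, Mrps16, a counterpart of bacterial S16, at 8.41, Mrps25 at 8.33 and Mrps17 at 7.85. The corresponding large subunit signals were 8.035 for Mrpl39, 7.63 for Mrpl34, 7.56 for Mrpl14 and 7.40 for Mrpl24. These 8 genes were far above background on every array. The dimmest were Mrpl27 (3.93), Mrpl30 (4.12), Mrpl19 (4.25) and Mrpl43 (4.34) among Mrpl symbols and Mrps14 (3.95), Mrps36 (3.96), Mrps34 (4.02) and Mrps10 (4.37) among Mrps symbols. Each of these 8 had a mean below the background level, so no change in them can be read as a change in a measured transcript. Mrps34 also lies on a second probe set that it shares with Nme3, whose signal of 5.18 was above background.

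**Figure D1:**
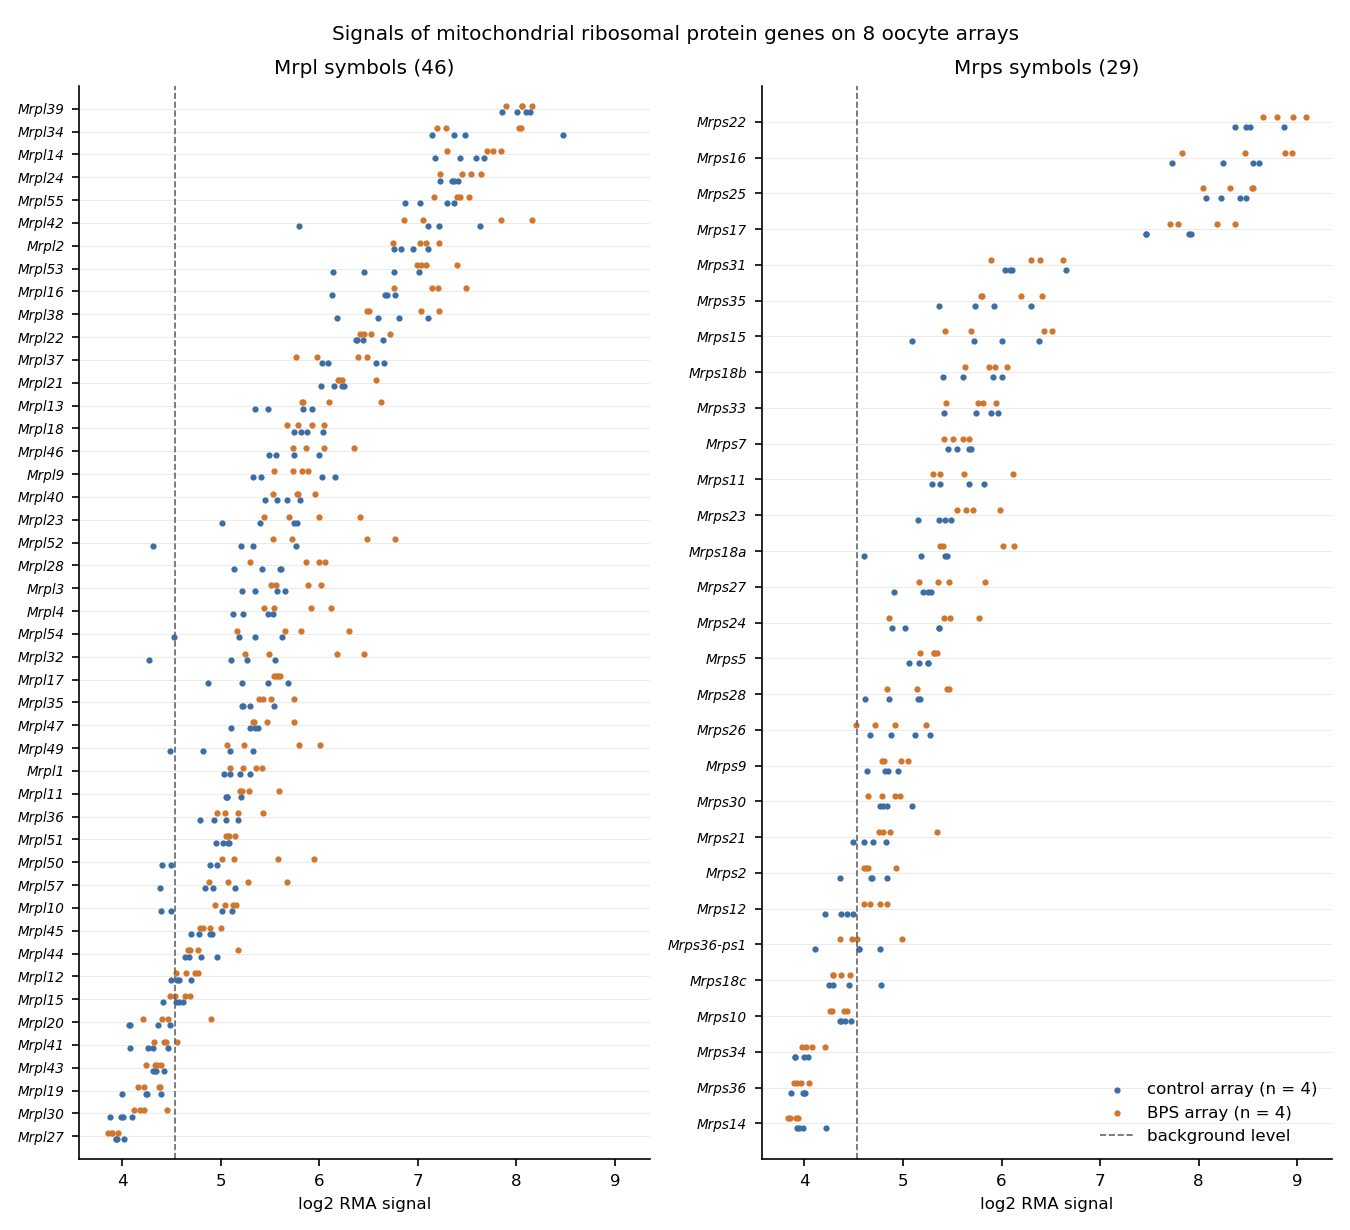
Log2 RMA signal (horizontal axes) of each of the 46 Mrpl genes (left) and 29 Mrps genes (right), with 1 point per array, 4 control and 4 BPS, and the background level of 4.54 as a dashed line. The genes span 3.93 to 8.72 in mean signal, and 11 of the 75 lie below the line.

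The question put to these genes was whether 7 days of BPS changed their level. In limma, a linear model that moderates each variance with those of all probe sets, 0 of the 75 passed an adjusted p of 0.05 (Benjamini-Hochberg over all probe sets), where 0.0087% of all probe sets did. Most of the genes were nevertheless higher in BPS in mean: 63 of 75 (84%) had a positive difference and 12 a negative one, and the median difference, BPS minus control, was 0.16 log2 units. The medians were 0.19 for Mrpl symbols (42 of 46 positive) and 0.10 for Mrps symbols (21 of 29 positive). With only the members above background they lay closer together, at 0.19 for Mrpl and 0.18 for Mrps symbols. The probe sets above background moved the same way, with a median of 0.12 and 70.7% positive, against 0.025 and 59.1% over all probe sets. Of the 64 members above background 58 (90.6%) were positive, with a median of 0.19. The difference between the subunits was not tested.

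At an unadjusted p below 0.05, 13 of the 75 genes (17.3%) were higher in BPS and 0 were lower. The background for this count was 7.99% of all probe sets higher, 3.11% lower, and 16.4% higher among probe sets above background. The share of the 75 genes was close to the last of these. Of the 64 members above background 12 (18.8%) were higher, Mrps12 among them. The count was 6 without control 1 or BPS 4, 7 without BPS 3, 8 without control 2, 20 without control 3 and 24 without BPS 1. The shares over all probe sets in those fits were not computed, so whether the whole table moved alike was not tested. By the p-values of the authors' deposited table, 6 of the 75 genes (8.0%) had a p below 0.05 and were higher in BPS, with 9.61% of the probe sets above background, and 0 passed an FDR of 0.05.

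**Figure D2:**
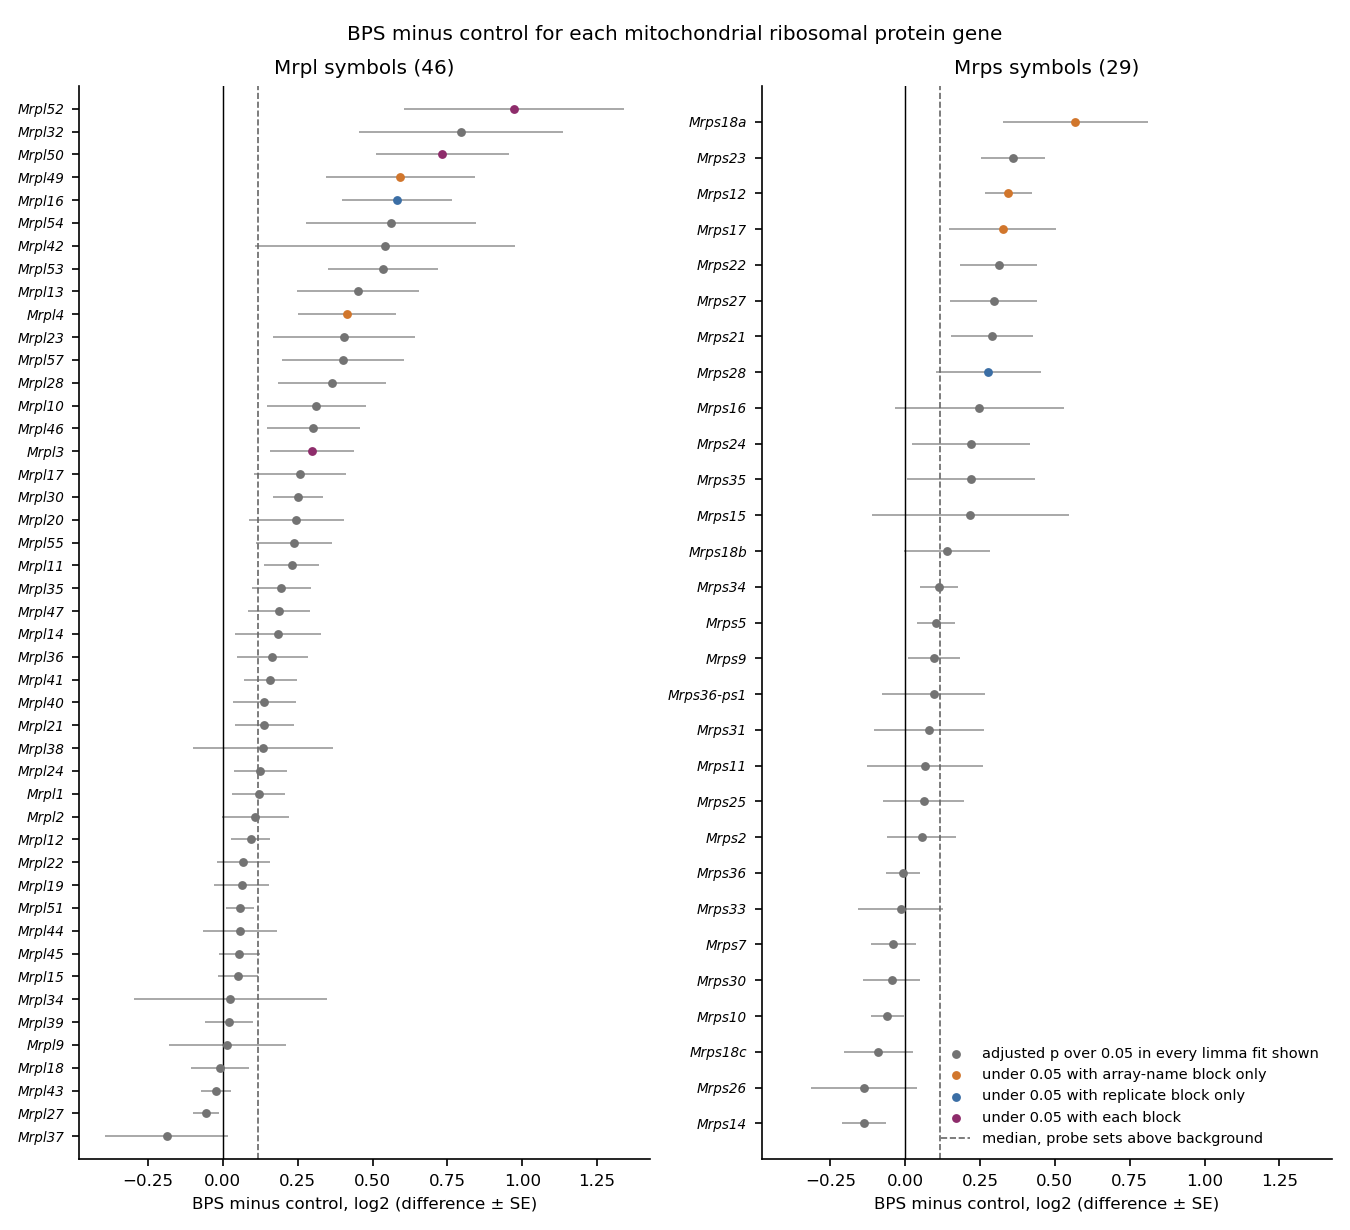
BPS minus control in log2 units (horizontal axes, difference ± SE from limma, 4 arrays per group) for each Mrpl gene (left) and Mrps gene (right), coloured by the fits with a block in which the gene passed an adjusted p of 0.05. The values run from -0.19 for Mrpl37 to 0.97 for Mrpl52, and 63 of 75 lie right of 0; the dashed line is the median of the probe sets above background, 0.12.

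The level of these genes differed from array to array. The median over the 75 genes was 5.09, 5.22, 5.48 and 5.30 on control arrays 1 to 4, and 5.33, 5.42, 5.58 and 5.83 on BPS arrays 1 to 4. The groups overlapped, since control 3 lay above BPS 1 and BPS 2. The median of all probe sets above background followed a like course, from 5.20 to 5.41 on control and from 5.36 to 5.62 on BPS arrays. Relative to that median the 75 genes stood between -0.11 and 0.09 on control and between -0.04 and 0.22 on BPS arrays, and BPS 4 was the highest. The median of the granulosa marker list, though at background, was 4.17 to 4.23 on control and 4.25 to 4.36 on BPS arrays, and that of the oocyte list 9.33 to 9.62 and 9.455 to 9.575. The part of either in the result was not tested, and in bulk RNA fewer cells of a type and less RNA per cell cannot be told apart.

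**Figure D3:**
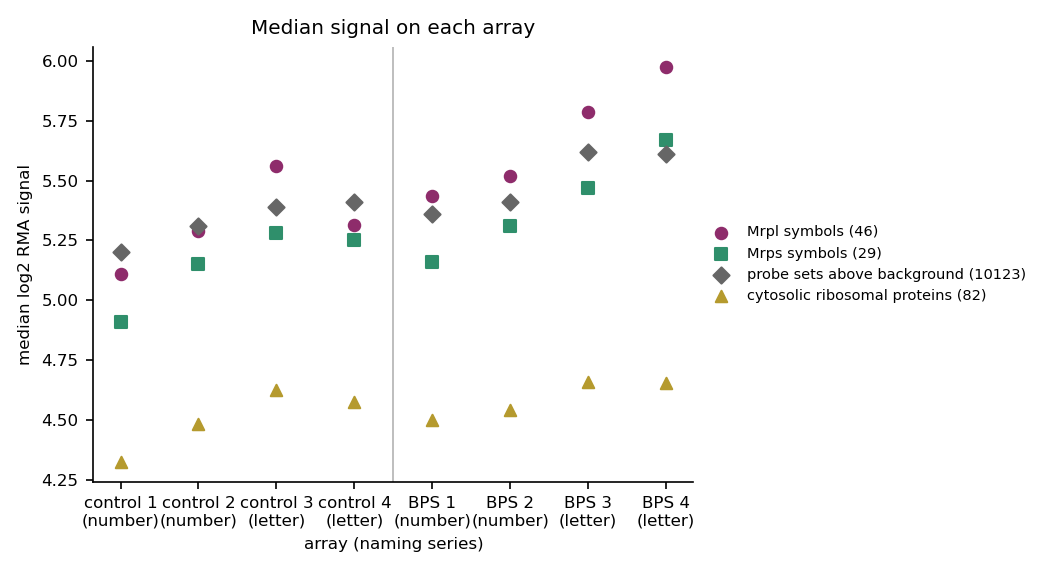
Median log2 RMA signal (vertical axis) on each of the 8 arrays for the Mrpl genes, the Mrps genes, the probe sets above background and the cytosolic ribosomal protein genes. All 4 medians are lowest on control 1, and the Mrpl and Mrps medians are highest on BPS 4, at 5.975 and 5.67.

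The authors' workbook names its arrays in 2 series, by numbers (replicates 1 and 2 of each group) and by letters (replicates 3 and 4), and the labels do not say what the names stand for. The genes were higher on the letter-named arrays, with a median difference of 0.19 over the groups and 68 of 75 positive, against 0.14 for probe sets above background. This was largest for Mrpl42 (1.01), Mrpl52 (0.89), Mrps15 (0.85) and Mrpl32 (0.835), and lowest for Mrps33 (-0.31). BPS minus control had a median of 0.12 within the number-named and 0.19 within the letter-named arrays, with 0.08 and 0.155 for probe sets above background. The median was thus positive within both series.

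With the array-name series as a block, 8 of the 75 genes (10.7%) passed an adjusted p of 0.05 in limma, and each of them was higher in BPS. The background was 2.78% of all probe sets and 7.46% of those above background. Of the 64 members above background 8 (12.5%) passed, among them Mrps12, which cleared that level only through its BPS arrays. With the replicate number as a block 5 genes (6.67%) passed, also higher, with a background of 1.59% and 4.39%. With each block 3 genes passed (Mrpl50, Mrpl52 and Mrpl3). The share of all probe sets that passed with each block was not computed, so this count has no background beside it. At an unadjusted p below 0.05 the array-name block gave 28 genes higher (37.3%, with 28.0% of probe sets above background) and the replicate block 28 as well (37.3%, with 30.1%), and 0 lower in either. Of the 64 members above background 25 (39.1%) and 26 (40.6%) were higher, respectively. For these counts the share over all probe sets was not computed. The count of 8 changed when 1 array was left out. It was 1 without control 1, control 3, control 4, BPS 2 or BPS 4, 3 without BPS 3, 4 without BPS 1 and 9 without control 2. The share of all probe sets that passed in those fits was not computed, so the changes cannot be read as particular to these genes.

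Mrpl50, a large subunit protein found only in mitochondria, had the smallest adjusted p with the array-name block. Its signal was 4.40, 4.50, 4.96 and 4.89 on the control arrays and 5.14, 5.01, 5.58 and 5.95 on the BPS arrays. All BPS values lay above all control values, and within both groups the letter-named arrays were the higher pair. The difference was 0.73 ± 0.22 (SE), 1.66-fold, from 4.69 ± 0.28 (SD, n = 4) to 5.42 ± 0.43 (SD, n = 4). The limma adjusted p was 0.383 without a block, 0.0131 with the array-name block and 0.0473 with the replicate block. With the array-name block and 1 array left out, its limma adjusted p ran from 0.0188 to 0.0499. The gene lies on chr4:49512597-49521083 (GRCm38.p6).

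Mrpl52, another large subunit protein particular to mitochondria, had the largest difference of the 75. Control arrays gave 4.31, 5.21, 5.33 and 5.76, and BPS arrays 5.53, 5.72, 6.48 and 6.77. Control 1 lay far below the other controls, and control 4 lay above BPS 1 and BPS 2, so the groups overlapped. The difference was 0.97 ± 0.37 (SE), 1.96-fold, and the limma adjusted p was 0.410 without a block, 0.0475 with the array-name block and 0.0469 with the replicate block. With the array-name block it ran from 0.0135 to 0.133 (limma adjusted p) when 1 array was left out.

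Mrpl3 and Mrpl4 descend from bacterial L3, in the core of the large subunit, and L4, which lines the tunnel through which the new chain leaves. Mrpl3 gave 5.35, 5.22, 5.57 and 5.65 on control and 5.56, 5.51, 5.89 and 6.02 on BPS arrays, and Mrpl4 gave 5.12, 5.23, 5.48 and 5.53 against 5.44, 5.54, 5.92 and 6.12. The letter-named controls lay above the number-named BPS arrays in Mrpl3 and overlapped them in Mrpl4. Within a naming series every BPS array was above every control array in both genes. The differences were 0.30 ± 0.14 (SE) for Mrpl3 and 0.415 ± 0.16 (SE) for Mrpl4. Limma adjusted p with the array-name block was 0.0356 and 0.0275, and without a block 0.469 and 0.423.

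Mrpl49, a protein particular to mitochondria, and Mrps18a, the S18 relative that sits in the large subunit, complete the large subunit members that passed with the array-name block. Mrpl49 was 4.49, 4.82, 5.33 and 5.09 on control and 5.06, 5.24, 5.79 and 6.01 on BPS arrays. Mrps18a was 4.60, 5.18, 5.45 and 5.43 on control and 5.41, 5.38, 6.01 and 6.13 on BPS arrays. The groups overlapped in each gene. The differences were 0.59 ± 0.25 (SE) and 0.57 ± 0.24 (SE), with limma adjusted p of 0.0308 and 0.0474 with the block and 0.440 and 0.443 without. The other S18 relatives, which sit in the small subunit, differed by 0.14 ± 0.14 (SE; Mrps18b) and -0.09 ± 0.11 (SE; Mrps18c, below background) and did not pass with either block.

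Of the small subunit, Mrps12 and Mrps17 passed with the array-name block. Mrps12, the counterpart of bacterial S12 at the decoding centre, had the smallest unadjusted p of the 75 without a block, 0.00205 (limma; adjusted p 0.307). Its signal was 4.21, 4.43, 4.49 and 4.37 on control and 4.67, 4.60, 4.77 and 4.84 on BPS arrays. The groups did not overlap, and all 4 control values lay below the background level and all 4 BPS values above it. The difference was 0.345 ± 0.078 (SE), 1.27-fold, with a limma adjusted p of 0.0327 with the array-name block and 0.0746 with the replicate block.

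Mrps17, the counterpart of bacterial S17, was 7.47, 7.47, 7.90 and 7.92 on control and 7.79, 7.71, 8.19 and 8.37 on BPS arrays. The letter-named controls lay above the number-named BPS arrays. The difference was 0.325 ± 0.18 (SE) and the limma adjusted p 0.0265 with the array-name block, 0.0521 with the replicate block and 0.511 without a block. With 1 array left out, the limma adjusted p with the array-name block ran up to 0.0822 for Mrps17, 0.0988 for Mrps12, 0.0949 for Mrpl3, 0.0843 for Mrpl4, 0.0927 for Mrpl49 and 0.133 for Mrps18a.

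The replicate block alone added Mrpl16 and Mrps28, counterparts of bacterial L16 and S1. Mrpl16 was 6.13, 6.77, 6.67 and 6.69 on control and 6.76, 7.14, 7.20 and 7.49 on BPS arrays, a difference of 0.58 ± 0.18 (SE), with a limma adjusted p of 0.0470 in that fit. Mrps28 was 4.61, 4.86, 5.15 and 5.17 on control and 4.84, 5.14, 5.47 and 5.45 on BPS arrays, a difference of 0.28 ± 0.17 (SE), with a limma adjusted p of 0.0473. In each gene every BPS array was above the control array of its number.

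In 4 of the 75 genes (5.33%) all BPS values lay above all control values, and in 0 the reverse. Over all probe sets 4.13% lay wholly above and 1.68% wholly below, and 7.2% of those above background lay wholly above. Of the 64 members above background 3 (4.69%) did, among them Mrps12, which cleared that level only through its BPS arrays. The 4 were Mrps12, Mrpl50, Mrps23 (5.15 to 5.49 on control, 5.55 to 5.98 on BPS arrays) and Mrpl30 (3.88 to 4.10 and 4.12 to 4.46, below background). The count was 9 without control 3 and 15 without BPS 1. The share over all probe sets was not computed with an array left out, so these counts cannot be read as particular to the members.

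Among the other large subunit genes with the smallest p were Mrpl32 (0.795 ± 0.34 SE), a counterpart of bacterial L32, Mrpl53 (0.535 ± 0.18), Mrpl13 (0.45 ± 0.20) and Mrpl11, at the base of the flexible stalk (0.23 ± 0.09). None of these passed with either block. Among the small subunit genes Mrps23 differed by 0.36 ± 0.11 (SE), Mrps22 by 0.31 ± 0.13, Mrps27 by 0.295 ± 0.15, Mrps21 by 0.29 ± 0.14 and Mrps5 by 0.10 ± 0.06, and none passed. Mrps22 was 8.37, 8.52, 8.87 and 8.48 on control and 8.65, 8.79, 8.96 and 9.09 on BPS arrays, so that control 3 lay above BPS 1 and BPS 2. Mrps14, at background, had the smallest p of the members with a negative difference, -0.14 ± 0.07 (SE).

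Several proteins with well known roles showed small differences. Mrpl12, the stalk protein that recruits translation factors, differed by 0.09 ± 0.07 (SE), Mrpl44 by 0.06 ± 0.12 and Mrpl45, which holds the ribosome at the inner membrane, by 0.055 ± 0.07. Mrps7 differed by -0.04 ± 0.08 (SE), Mrps30 by -0.045 ± 0.10, Mrps36 by -0.01 ± 0.06 and Mrps16 by 0.25 ± 0.28. None of these 7 passed without a block or with either block. The brightest large subunit genes, Mrpl39 and Mrpl34, differed by 0.02 ± 0.08 (SE) and 0.025 ± 0.32. Mrpl34 ranged from 7.14 to 8.47 on the control arrays, with control 3 the highest. Mrpl14 differed by 0.185 ± 0.14 (SE), Mrpl24 by 0.125 ± 0.09 and Mrps25 by 0.06 ± 0.14, and none of these bright genes passed. The differences of the dim genes Mrpl19, Mrpl27, Mrpl43, Mrps10 and Mrps34 lay between -0.06 and 0.11. The most negative difference, that of Mrpl37, was -0.19 ± 0.21 (SE).

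Mrpl47, at the rim of the exit tunnel, was the only symbol with 2 probe sets of its own. The brighter one differed by 0.19 ± 0.10 (SE) and the other, at 5.35, by 0.005 ± 0.15. Its probe sets thus did not give the same value, and neither passed. The probe set that Mrpl53 shares with Ccdc142 lay below background (3.945) and differed by 0.115 ± 0.04 (SE). Those that Mrpl51 shares with Mir3098 and Mrps34 with Nme3 differed by -0.10 ± 0.22 and -0.10 ± 0.12 (SE). Members with a bacterial counterpart (45 genes) had a median difference of 0.185 and those particular to mitochondria (28 genes) one of 0.15.

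Quantile normalization, which gives each array the same distribution of values, took away most of the shift. The median difference over the 75 genes became 0.04 (45 of 75 positive, 60%), with 0.06 for Mrpl and 0.03 for Mrps symbols, while that of the probe sets above background went from 0.12 to 0.0034. At an unadjusted p below 0.05, 8 of the 75 genes (10.7%) were then higher and 0 lower, with 9.35% of the probe sets above background higher. With the array-name block on top, 1 gene of 75 passed, Mrpl50 (0.61, limma adjusted p 0.0198), with 2.45% of the probe sets above background. Mrpl52 kept a difference of 0.83, Mrpl32 of 0.66, Mrpl4 of 0.23 and Mrpl3 of 0.11.

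**Figure D4:**
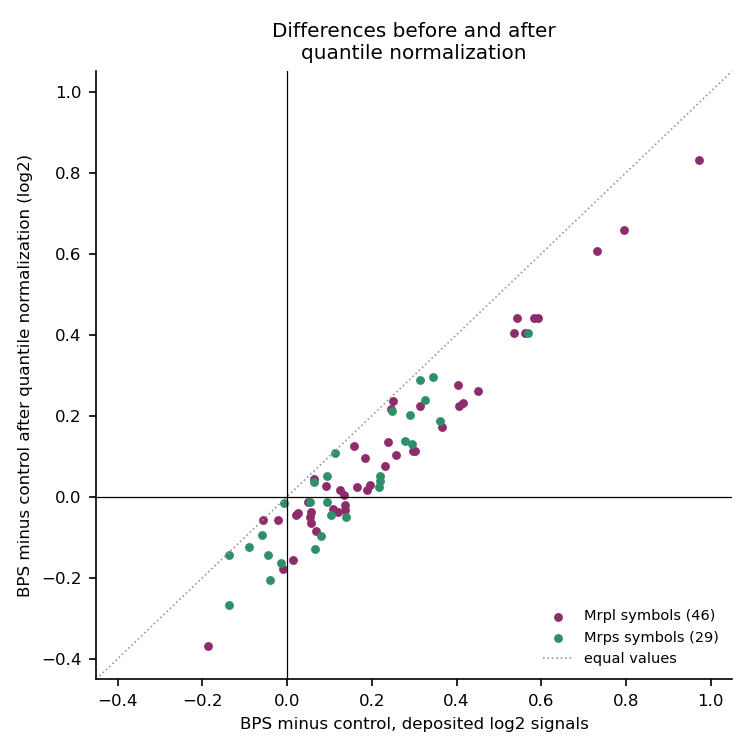
BPS minus control in log2 units for each of the 75 genes with the deposited signals (horizontal axis) and after quantile normalization (vertical axis). All 75 points lie below the line of equal values, and the number with a positive difference goes from 63 to 45, while Mrpl52 stays the highest at 0.83.

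The remaining genes of mitochondrial translation were taken from lists written by role. Of 6 mitochondrial ribosome proteins without an Mrp symbol, all above background, 0 passed without a block or with either block, and their median difference was 0.19. They include Ict1 (now Mrpl58, which frees chains from stalled ribosomes) at 0.27 ± 0.16 (SE), Aurkaip1 at 0.35 ± 0.22 and Dap3 at 0.16 ± 0.08. Of 19 translation factors 11 were above background, and the median difference was 0.04. With the array-name block 1 of the 19 passed, against 2.78% of all probe sets and 7.46% of those above background. This was Tufm, the elongation factor that brings aminoacyl-tRNA, higher by 0.645 ± 0.22 (SE; limma adjusted p 0.0128), with a mean just under background. Oxa1l, which inserts new chains into the inner membrane, was higher by 0.685 ± 0.26 (SE) and passed with the replicate block (limma adjusted p 0.04025). With that block 2 of the 19 passed, both higher in BPS, against 1.59% of all probe sets and 4.39% of those above background. Mtfmt, which formylates the initiator tRNA, differed by -0.185 ± 0.13 (SE).

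Of 26 assembly and ribosomal RNA factors 16 were above background, and the median difference was 0.07. With the replicate block 1 of the 26 passed, higher in BPS, beside 1.59% and 4.39%. With the array-name block 3 of the 26 passed, all higher in BPS, beside the same 2.78% and 7.46%. The helicase Dhx30 (0.34 ± 0.08 SE) was 5.06 to 5.21 on control and 5.34 to 5.68 on BPS arrays, with no overlap. The others were Trub2 (0.31 ± 0.12 SE, below background) and Fastkd2 (0.31 ± 0.12 SE), an RNA-binding protein of mitochondria, named after their values were seen. The GTPase Mtg2 differed by 0.26 ± 0.07 and the methyltransferase Nsun4 by -0.155 ± 0.06, and neither passed. Of 14 regulators of mitochondrial gene expression 0 passed, with a median of 0.09; Tefm, the mitochondrial transcription elongation factor, differed by 0.315 ± 0.14 (SE), Pprc1 by 0.36 ± 0.17 and Myc by 0.15 ± 0.08. Of 10 genes of the mitochondrial genome that code for protein 0 passed, with a median of 0.25: ND1 differed by 0.33 ± 0.12 (SE), ND6 by 0.135 ± 0.08 and ND5 by 0.47 ± 0.39. The median over these 10 ranged from 6.495 (control 1) to 8.07 (control 3) within the control group alone. Of 82 cytosolic ribosomal protein genes 43 were above background, and the median difference was 0.05. With the array-name block 2 of the 82 passed (Rpl10l, 0.80 ± 0.22 SE, and Rpl28, 0.49 ± 0.16 SE, below background), a share near the 2.78% of all probe sets. With the replicate block the count was also 2 of the 82, beside 1.59% of all probe sets.

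The promoters of these genes are shown because the nuclear genes of mitochondrial proteins are known to share sites for NRF1, for GABP (an ETS factor also called NRF2) and for YY1. Windows from 250 bases before to 50 bases after the RefSeq start (GRCm38.p6) were at hand for 65 of the 75 genes. They were searched on both strands for GCGCATGC (NRF1 core), CCGGAAG (GABP/ETS core) and AAGATGGCG (YY1 core). The stretch GCGCATGCGC reads the same on both strands, so it holds the NRF1 core once on each, over overlapping bases. The GABP core stood in 23 of 65 genes (35.4%), against 12.9% of protein-coding genes and 21.7% of genes with a probe set above background. The YY1 core stood in 8 (12.3%, against 2.14% and 4.02%) and the NRF1 core in 7 (10.8%, against 3.94% and 6.77%). Any of the 3 stood in 33 of 65 genes (50.8%), against 17.6% and 29.6%. GC content was 58.5% in median, with 56.3% for protein-coding genes and 60.7% for genes above background, and CpG counts per window were 21.5, 13 and 21.

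**Figure D5:**
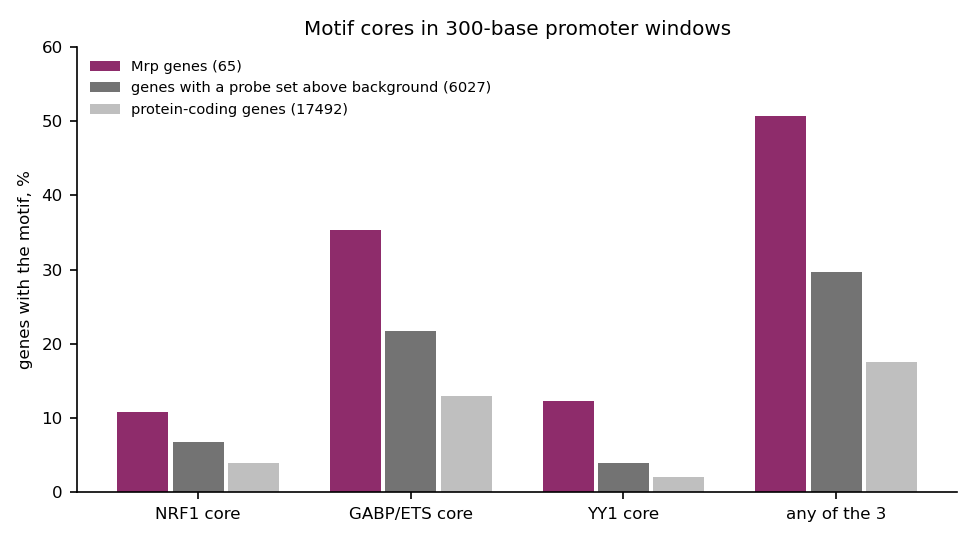
Share of genes (vertical axis, %) whose 300-base promoter window holds each motif core on either strand, for 65 Mrp genes, 6027 genes with a probe set above background and 17492 protein-coding genes. The GABP/ETS core is in 35.4% of Mrp genes and 21.7% of genes above background, and any of the 3 in 50.8% and 29.6%.

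Below are 200 bases (150 before the start and 50 after), in the direction of the gene. They are given for the 4 members that passed with the array-name block and hold a motif, and for Mrpl50, which passed and holds none. Mrpl39, which differed by 0.02, is added: it holds 1 such stretch, with the NRF1 core on each strand. Capitals mark a motif core on either strand. They are Mrpl52 (chr14:54426759-54426958, plus strand), Mrps18a (chr17:46110854-46111053, plus), Mrpl3 (chr9:105053118-105053317, plus), Mrps12 (chr7:28741772-28741971, minus), Mrpl50 (chr4:49521034-49521233, minus) and Mrpl39 (chr16:84735195-84735394, minus).
Mrpl52: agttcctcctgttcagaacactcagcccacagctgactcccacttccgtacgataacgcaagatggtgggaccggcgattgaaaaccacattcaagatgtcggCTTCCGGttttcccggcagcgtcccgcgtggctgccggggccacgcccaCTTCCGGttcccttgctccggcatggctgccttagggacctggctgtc
Mrps18a: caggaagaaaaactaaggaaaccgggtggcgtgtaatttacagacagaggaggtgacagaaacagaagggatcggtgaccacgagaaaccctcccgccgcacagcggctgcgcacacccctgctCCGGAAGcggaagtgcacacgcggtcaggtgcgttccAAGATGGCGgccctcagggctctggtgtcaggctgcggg
Mrpl3: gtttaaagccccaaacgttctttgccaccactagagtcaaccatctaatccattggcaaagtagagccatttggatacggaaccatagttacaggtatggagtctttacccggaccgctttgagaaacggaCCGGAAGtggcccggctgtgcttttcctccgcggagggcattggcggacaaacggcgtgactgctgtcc
Mrps12: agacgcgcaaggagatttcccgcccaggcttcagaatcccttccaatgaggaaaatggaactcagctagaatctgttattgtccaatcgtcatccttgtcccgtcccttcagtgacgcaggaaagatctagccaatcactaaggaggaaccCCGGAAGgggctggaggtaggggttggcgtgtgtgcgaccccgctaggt
Mrpl50: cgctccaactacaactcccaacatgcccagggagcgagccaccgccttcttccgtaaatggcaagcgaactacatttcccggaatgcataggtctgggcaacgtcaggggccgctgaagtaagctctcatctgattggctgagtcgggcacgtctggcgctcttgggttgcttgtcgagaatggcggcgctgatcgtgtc
Mrpl39: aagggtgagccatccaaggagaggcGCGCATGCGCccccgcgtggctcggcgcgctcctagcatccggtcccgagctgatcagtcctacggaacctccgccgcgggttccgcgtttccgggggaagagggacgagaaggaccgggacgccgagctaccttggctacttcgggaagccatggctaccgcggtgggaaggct

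Counted from the start as base 1, the GABP core began at -47 and 3 in Mrpl52, at -26 in Mrps18a, at -19 in Mrpl3 and at 2 in Mrps12, and the YY1 core at 12 in Mrps18a. Members with any of the 3 motifs (33) had a median BPS minus control of 0.195, and those without (32) one of 0.13. Of the genes that passed with the array-name block 4 were among the former and 3 among the latter, and Mrpl4 had no window. The motif counts describe letters in these windows and say nothing of binding.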

How the data were processed

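The authors deposited log2 signals, summarised per gene-level probe set with RMA and annotated on mm10, per the file headers. Per the submitters' processing notes the software was the Transcriptome Analysis Console, with no version. Beside them stand the authors' group averages and standard deviations in log2, a signed fold score (control over treated, so that a negative value means higher in treated animals, per the file headers), and p-values and FDR values, 4 of which use a decimal comma. The sources used here do not give their test.

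From these signals BPS minus control was fitted with limma 3.58.1 (R 4.3.3), lmFit and eBayes, as a two-sided test with no covariate on all 34472 probe sets, and p was adjusted by Benjamini-Hochberg over the whole table. The threshold was an adjusted p of 0.05. The fit was tested on simulated data with known changes. No low-signal filter was applied. Alternatives were quantile normalization, median centring, filters on low signal, blocks for replicate number and array-name series, trend and robust moderation, all probe sets of a symbol, and leaving out each array. Fits within 1 naming series, the authors' p-values, and the array-name block with arrays left out were added after seeing the data.

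Groups came from the labels. Pairing was checked by correlating deviations from group means: same-numbered arrays gave 0.519, 0.383, 0.173 and 0.362, each over 0.1, so blocked values stand beside the results they change. Other pairs of the same naming series correlated at 0.454, 0.305, 0.437 and 0.493, so the numbers were not shown to pair arrays beyond that series. The labels do not say what a number shares.

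Named genes were the 10 smallest p, 4 brightest and 4 dimmest per subunit, those passing with a block, 13 preset members, symbols with several probe sets, and the 3 smallest p of each related list. Members and lists were chosen with earlier results of these data known. Promoters were RefSeq windows on GRCm38.p6, matched by gene ID.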

Additional observations from a re-analysis of the deposited data

Results flagged for a closer look

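In 4 genes 1 control array stood apart from the other 3 of its group, with a gap over range above the critical value of Dixon's test for groups of 4. They are Mrpl11 in control 3 (5.21), Mrpl16 in control 1 (6.13), Mrpl27 in control 4 (4.02) and Mrps36 in control 1 (3.86). The test was run on 82 groups and chance flags about 1 in 20. Mrpl27 and Mrps36 lie below background.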

How the results depend on the processing

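No median over the 75 genes or either subunit changed direction: over the arrays left out it ran from 0.09 to 0.22, for Mrpl symbols from 0.13 to 0.27 and for Mrps symbols from 0.05 to 0.19. The count of genes passing an adjusted p of 0.05 in limma went from 0 to 5 with the replicate block, 8 with the array-name block and 1 with that block after quantile normalization, and was 0 under every other alternative run. At an unadjusted p below 0.05 the count of 13 became 8 after quantile normalization, 28 with the replicate block, 28 with the array-name block, 6 with the authors' p-values, and 6 to 24 with 1 array left out. With 1 array left out, the 8 calls with the array-name block became 1 to 9, and the 4 genes whose groups did not overlap became 4 to 15. For counts with 1 array left out the share over all probe sets was not computed, so they cannot be read as particular to these genes. Among the 75 genes the replicate block changed no call but those of the 5 genes named in the report. The sign of the difference turned in 18 of the 75 genes after quantile normalization, in 19 with at least 1 of the arrays left out, in 2 on the number-named arrays alone and in 3 on the letter-named ones, and 0 of these genes had passed with a block. Values follow for the 40 genes named by rule. Quantile normalization, with or without the array-name block, turned 6 of them: Mrpl34 (-0.0398), Mrpl39 (-0.0441), Mrpl44 (-0.0386), Mrpl45 (-0.0494), Mrps18b (-0.0488) and Mrps5 (-0.0458). Of these 40, Mrpl34 turned on the number-named arrays (-0.07) and Mrps7 on the letter-named ones (0.015). With 1 array left out 10 of the 40 turned: Mrpl19 (-0.0108 to 0.1192), Mrpl34 (-0.1333 to 0.31), Mrpl39 (-0.0383 to 0.0683), Mrpl43 (-0.0433 to 0.0067), Mrpl44 (-0.06 to 0.1208), Mrps18c (-0.1542 to 0.0225), Mrps25 (-0.0142 to 0.17), Mrps30 (-0.0917 to 0.0267), Mrps36 (-0.0425 to 0.015) and Mrps7 (-0.0842 to 0.0042). The cause of these changes was not tested. Signals near background limit what can be said of the 11 genes below it.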
